A study of Mus musculus with 9 samples.

Results

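Serpins are serine protease inhibitors and their non-inhibitory relatives. The 47 Serpin genes described here are all genes of the deposited expression table whose symbol is Serpin followed by a clade letter from a to i and a digit, pseudogene symbols with a -ps suffix left out, of 28517 genes in all. They were measured by RNA sequencing of liver from db/db mice. The db mutation removes leptin signalling, and homozygous animals are obese and diabetic; every group carries it. The groups were given FGF19WT, FGF19ΔKLB or PBS (the vehicle) for 12 weeks, and each holds 3 libraries. FGF19 is a gut hormone that lowers bile acid synthesis in liver through a receptor complex that contains β-klotho, which KLB encodes. The labels call the second protein FGF19ΔKLB and code its columns F19_HBS, a code they do not define, and they give no sequence change. Nothing states that a group's libraries come from separate animals, so p-values measure the spread between these libraries, which may be technical. The age and sex of the animals are not given in the sources used here.

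An inhibitory serpin offers an exposed reactive centre loop as bait. When the target protease cuts the loop, the serpin changes shape and traps the protease in a covalent complex, so the letters of the loop set which protease is caught. The liver secretes most of the serpins of blood plasma, among them α-antitrypsin copies (Serpina1), antithrombin, heparin cofactor, antiplasmin and C1 inhibitor, while clade b serpins stay inside cells. Others no longer inhibit: corticosteroid-binding globulin (Serpina6) and thyroxine-binding globulin (Serpina7) carry hormones, and Serpinh1 is a chaperone of collagen. Mice carry expanded Serpina1 and Serpina3 families where humans have a single gene of each.

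The libraries held 65.08 M to 73.29 M counts. FGF19WT libraries 2 and 3 stood apart from the other 7 on the first principal component of all genes, at 129.8 and 169.9, where the others lay between -64 and -7.852 and FGF19WT library 1 was at -41.0; this component held 48.9% of the variance. All 8 hepatocyte markers were present, with summed levels of 101400 to 199200 CPM (counts scaled to a common library size) in FGF19WT, 197700 to 288000 CPM in FGF19ΔKLB and 97980 to 159200 CPM in vehicle livers. Most of this sum was albumin (Alb). Of the 8 markers, 4 were fitted higher and 4 lower in FGF19ΔKLB than in vehicle livers. The 8 pericentral hepatocyte markers summed to 5501, 30200 and 26990 CPM in FGF19WT, 2259 to 3999 CPM in FGF19ΔKLB and 5294 to 9277 CPM in vehicle livers. The 7 periportal hepatocyte markers summed to 4461, 137.6 and 185.1 CPM in FGF19WT, 3142 to 4377 CPM in FGF19ΔKLB and 3203 to 4838 CPM in vehicle livers, so FGF19WT libraries 2 and 3 were highest in pericentral and lowest in periportal markers. The 8 Kupffer cell markers summed to 14.98 to 176.5 CPM in FGF19WT, 157.5 to 192.5 CPM in FGF19ΔKLB and 172.6 to 255.4 CPM in vehicle livers. None of these markers was at 0 in every library of a group, and their part in the results was not tested.

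Serpina1a to Serpina1e are similar copies that part in the reactive centre loop, so the coding stretch of each loop is shown first. The stretches cover 25 codons on the minus strand of chromosome 12 (GRCm38, GENCODE M21 transcripts): Serpina1a at chr12:103853762-103853836, Serpina1b at chr12:103728329-103728403, Serpina1c at chr12:103895099-103895173, Serpina1d at chr12:103763767-103763841 and Serpina1e at chr12:103947105-103947179. Capitals mark the codon after the 16 codons from the conserved hinge of the loop, where the target protease is taken to cut.
Serpina1a: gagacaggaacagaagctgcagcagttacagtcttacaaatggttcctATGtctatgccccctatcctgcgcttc
Serpina1b: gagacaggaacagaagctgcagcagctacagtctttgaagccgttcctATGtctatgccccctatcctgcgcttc
Serpina1c: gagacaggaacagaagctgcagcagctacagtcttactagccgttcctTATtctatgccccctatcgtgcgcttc
Serpina1d: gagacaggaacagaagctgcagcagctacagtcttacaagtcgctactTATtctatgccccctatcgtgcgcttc
Serpina1e: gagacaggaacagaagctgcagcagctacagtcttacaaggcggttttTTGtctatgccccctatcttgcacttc
The first 8 codons were identical in all 5 genes, 24 of 24 bases, and the last 8 differed at no more than 2 bases. The marked codon was ATG in Serpina1a and Serpina1b, TAT in Serpina1c and Serpina1d, and TTG in Serpina1e. Over all 75 bases the closest pair was Serpina1c and Serpina1d with 71 identical, and the most distant was Serpina1a and Serpina1e with 65. Outside the loop the copies share long stretches: 73.3% of the 50-base windows of Serpina1c transcripts, 51.4% of those of Serpina1a, 48% of Serpina1d, 34.6% of Serpina1e and 28.2% of Serpina1b occur word for word in another Serpin gene. Counts of these copies are therefore uncertain one by one, and their sum is given beside them. The share was 19.1% for Serpina3m and 13.7% for Serpina3k, and 0% for Serpina1f, Serpina6, Serpina12, Serpinc1, Serpind1 and Serpinf2. Serpina1c, Serpinb6a, Serpinc1 and Serpind1 overlap an annotated gene on the other strand, and the sources used here do not say whether counting used strand. In GENCODE M21, Serpina1b overlaps Serpina1d, Gm17042, Gm17043 and Gm8893 on the same strand. The deposited Serpina1b interval is shorter and does not reach Serpina1d. Serpinc1 overlaps Gm37729 and Serpini1 overlaps Gm37672 on the same strand.

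The 100 bases before the annotated start of Serpina1a to Serpina1e are shown (RefSeq, GRCm38.p6, minus strand of chromosome 12). They were chosen because each gene was higher in every FGF19ΔKLB library than in every vehicle library. Capitals mark GTTAAT, a half-site of the liver factor HNF1.
Serpina1a: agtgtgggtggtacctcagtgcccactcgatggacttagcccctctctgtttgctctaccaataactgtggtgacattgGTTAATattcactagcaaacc
Serpina1b: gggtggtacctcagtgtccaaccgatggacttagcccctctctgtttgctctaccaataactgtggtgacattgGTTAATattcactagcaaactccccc
Serpina1c: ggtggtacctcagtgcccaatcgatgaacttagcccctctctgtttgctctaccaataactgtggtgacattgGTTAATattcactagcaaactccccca
Serpina1d: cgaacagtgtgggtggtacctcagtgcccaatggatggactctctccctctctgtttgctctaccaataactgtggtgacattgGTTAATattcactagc
Serpina1e: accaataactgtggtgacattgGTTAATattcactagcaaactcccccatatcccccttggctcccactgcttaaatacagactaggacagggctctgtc
All 5 windows hold the motif inside a common stretch, 16 to 78 bases before the start each annotation gives. The RefSeq windows, from 250 bases before to 50 after a start, were found for 23 of the 30 Serpin genes tested; Serpina10, Serpina3k, Serpina3m, Serpina6, Serpinb1a and Serping1 are among those with no entry. On either strand, GTTAAT occurred in 7 of 23 (30.4%), against 7.2% of all 27025 windows, and 5 of the 7 are the Serpina1 copies, which share this stretch. TTGCNNAA, a C/EBP motif, occurred in 8 of 23 (34.8%), against 10.8% of all windows. The 8 include the copies Serpina1a, Serpina1b, Serpina1d and Serpina1e. TTCNNNGAA, a STAT motif, occurred in 5 of 23 (21.7%), against 8.47%, and CTTTGAT, a TCF/LEF motif, in 2 of 23 (8.7%), against 3.72%. The 5 include the related genes Serpina3f, Serpina3g and Serpina3i. Matches in related genes are not independent. No 2 matches overlapped in a member's window. A match is a description of letters and no evidence of binding.

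Per length, in the deposited FPKM, the highest Serpin genes were α-antitrypsin copies, with Serpina1b at a mean of 4021 FPKM over 9 libraries, Serpina1a with 2732 FPKM, Serpina1c with 2671 FPKM and Serpina1d with 2131 FPKM. Serpina3k followed with 1453 FPKM, Serpina3n with 427 FPKM, Serpinf2 with 353 FPKM, Serping1 with 328 FPKM and Serpina3m with 309 FPKM. The copy Serpina1e was lower, with 254 FPKM. At the other end, 11 of the 47 genes had a count of 0 in at least 6 libraries. The low-count filter kept 30 genes for testing, among 18142 genes in all; the 17 left out had at most 28 counts or 0.41 CPM in any library. Those 17 include Serpina1f, Serpina5, Serpina9, Serpina16, Serpine3, the annotated pseudogenes Serpina3h and Serpinb10, and 7 other clade b genes, among them Serpinb2 and Serpinb7. Of the 24 clade a genes 16 were tested, and of the 13 clade b genes 5. In GRCm38, 23 of the 47 lie in a cluster on chromosome 12 between 103614786 and 104414329, 8 on chromosome 13 and 7 on chromosome 1.

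Serpin transcripts together took 4.50%, 1.83% and 1.63% of all counts in the FGF19WT libraries, 4.37%, 4.03% and 4.49% in the FGF19ΔKLB libraries, and 3.11%, 3.05% and 3.30% in the vehicle libraries. The mean was 2.65% ± 1.60 in FGF19WT, 4.30% ± 0.240 in FGF19ΔKLB and 3.15% ± 0.128 in vehicle livers (SD, n = 3 each). FGF19ΔKLB livers were above vehicle livers in every library, and FGF19WT library 1 was as high as the FGF19ΔKLB libraries while its 2 partners were lower than all others. The smallest two-sided p that an exact permutation test can give for 3 against 3 libraries is 0.1, so these sums carry no test. Albumin, the main secreted protein of hepatocytes, took 16.4%, 9.14% and 8.67% of counts in FGF19WT, 19.7%, 16.3% and 21.1% in FGF19ΔKLB and 11.2%, 13.5% and 8.60% in vehicle libraries, and was also higher in every FGF19ΔKLB library than in every vehicle library. In bulk liver, fewer cells of a type and less RNA per cell cannot be told apart.

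The Serpina1 genes made up most of this. Serpina1a to Serpina1e summed to 35358, 10325 and 9994 CPM in FGF19WT, 35427, 29142 and 37493 CPM in FGF19ΔKLB, and 20195, 21734 and 19329 CPM in vehicle livers. The groups FGF19ΔKLB and vehicle did not overlap, while FGF19WT spanned both sides of the vehicle range. Their share of all Serpin counts was 76.1%, 65.4% and 64.7% in FGF19WT, 75.5%, 70% and 70.7% in FGF19ΔKLB, and 66.4%, 70.8% and 63.4% in vehicle livers. With Serpina1a to Serpina1e, Serpina3k and antithrombin (Serpinc1) taken out, the remaining 40 genes took 0.579%, 0.445% and 0.412% of counts in FGF19WT, 0.551%, 0.676% and 0.580% in FGF19ΔKLB, and 0.395%, 0.432% and 0.596% in vehicle livers, and all 3 groups overlapped in this measure. In TMM-scaled CPM the same 40 genes summed to 5987, 3834 and 3895 CPM in FGF19WT, 5928, 6992 and 6846 CPM in FGF19ΔKLB, and 3865, 4346 and 5508 CPM in vehicle livers, where FGF19ΔKLB lay above vehicle.

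**Figure D1:**
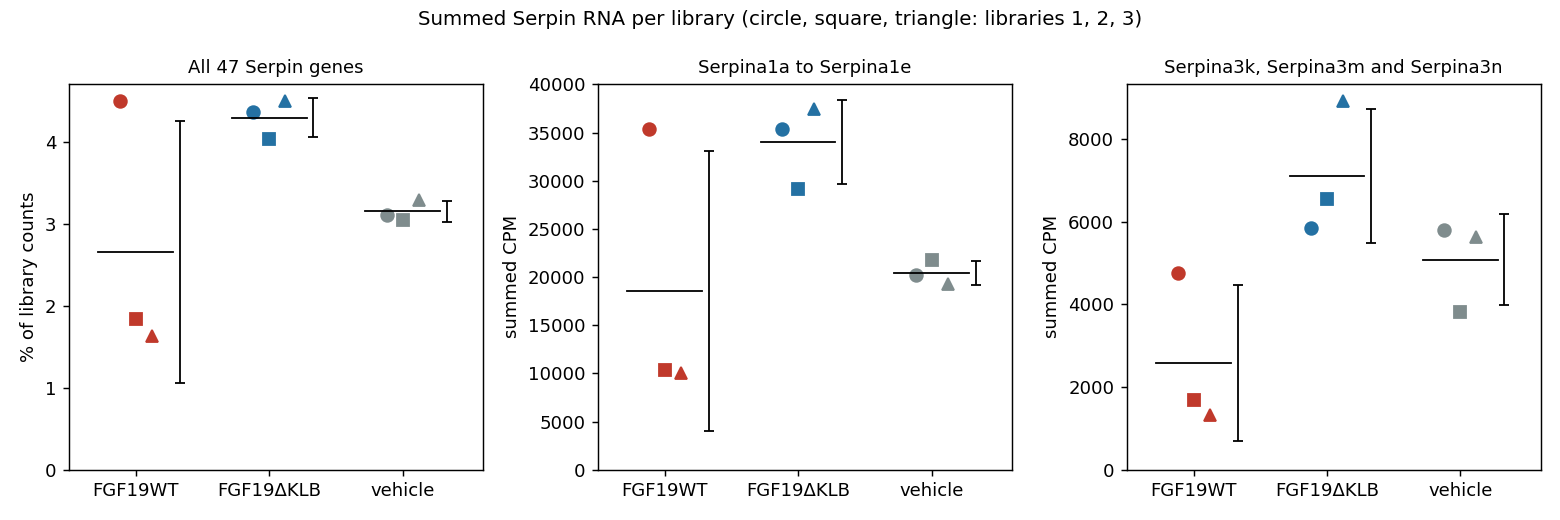
Percent of counts in all 47 Serpin genes, summed CPM of Serpina1a to Serpina1e, and summed CPM of Serpina3k, Serpina3m and Serpina3n, by library (points), with the group mean (line) and SD (bar, n = 3) for FGF19WT, FGF19ΔKLB and vehicle. In the first 2 panels the FGF19ΔKLB libraries lie above the vehicle libraries, and FGF19WT splits into 1 high and 2 low libraries.

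FGF19ΔKLB livers held more RNA of the α-antitrypsin copies, vaspin and antiplasmin than vehicle livers in every library, and FGF19WT livers held more corticosteroid-binding globulin and antiplasmin. None of them passed the main test across all genes. A gene counts as past the test at a Benjamini-Hochberg adjusted p below 0.05 in edgeR's quasi-likelihood test over all 9 libraries. For FGF19WT against vehicle 0 of the 30 tested Serpin genes passed, beside 0.11% of all genes. When FGF19ΔKLB was set against vehicle it was 0 of 30, beside 0.011% of all genes, and against FGF19WT it was 0 of 30, beside 0%. At an unadjusted p below 0.05, edgeR gave 3, 3 and 7 Serpin genes in those 3 comparisons, against 18.8%, 8.35% and 12.5% of all genes. DESeq2 gave 3 Serpin genes for FGF19WT against vehicle (9.61% of all genes). It gave 2 for FGF19ΔKLB against vehicle (2.04%) and 2 for FGF19ΔKLB against FGF19WT (4.6%). Over the 6 libraries of the groups compared, edgeR called Serpinf2 for FGF19ΔKLB against vehicle, 1 of 30 (3.33%) beside 1.68% of all genes, and DESeq2 called 10 of 30 (33.3%) beside 7.95%. Those 10 were Serpina1a to Serpina1d, Serpina3g, Serpina3m, Serpina11, Serpina12, Serpind1 and Serpinf2. In the same fits edgeR called 0 of 30 for FGF19WT against vehicle (0.00574% of all genes) and 0 of 28 for FGF19ΔKLB against FGF19WT (0.00584%). All 3 comparisons share libraries pairwise, so they are not independent.

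The median log2 fold change of the 30 genes was -0.44 for FGF19WT against vehicle, with 8 of 30 positive, beside a median of -0.005 and 49.6% positive over all genes. For FGF19ΔKLB against vehicle it was 0.24 with 18 of 30 positive, beside 0.002 and 50.2%. For FGF19ΔKLB against FGF19WT it was 0.65 with 25 of 30 positive, beside 0.01 and 50.9%. The counts that use FGF19WT turned on its library 1. Without it, edgeR called 16 of 31 Serpin genes for FGF19WT against vehicle (27.4% of all genes), Serpinf2 higher (13.1% of all genes) and 15 lower (14.3%). For FGF19ΔKLB against FGF19WT it called 16 of 31 (20.2% of all genes), all higher (10.9%), and for FGF19ΔKLB against vehicle 1 of 31, Serpina12 (0.904%). Without libraries 2 and 3 instead, it called 0 of 37 for FGF19WT against vehicle (0.1%) and 0 of 37 for FGF19ΔKLB against FGF19WT (0.0352%), and for FGF19ΔKLB against vehicle 1 of 37, Serpinf2 (1.52%).

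**Figure D2:**
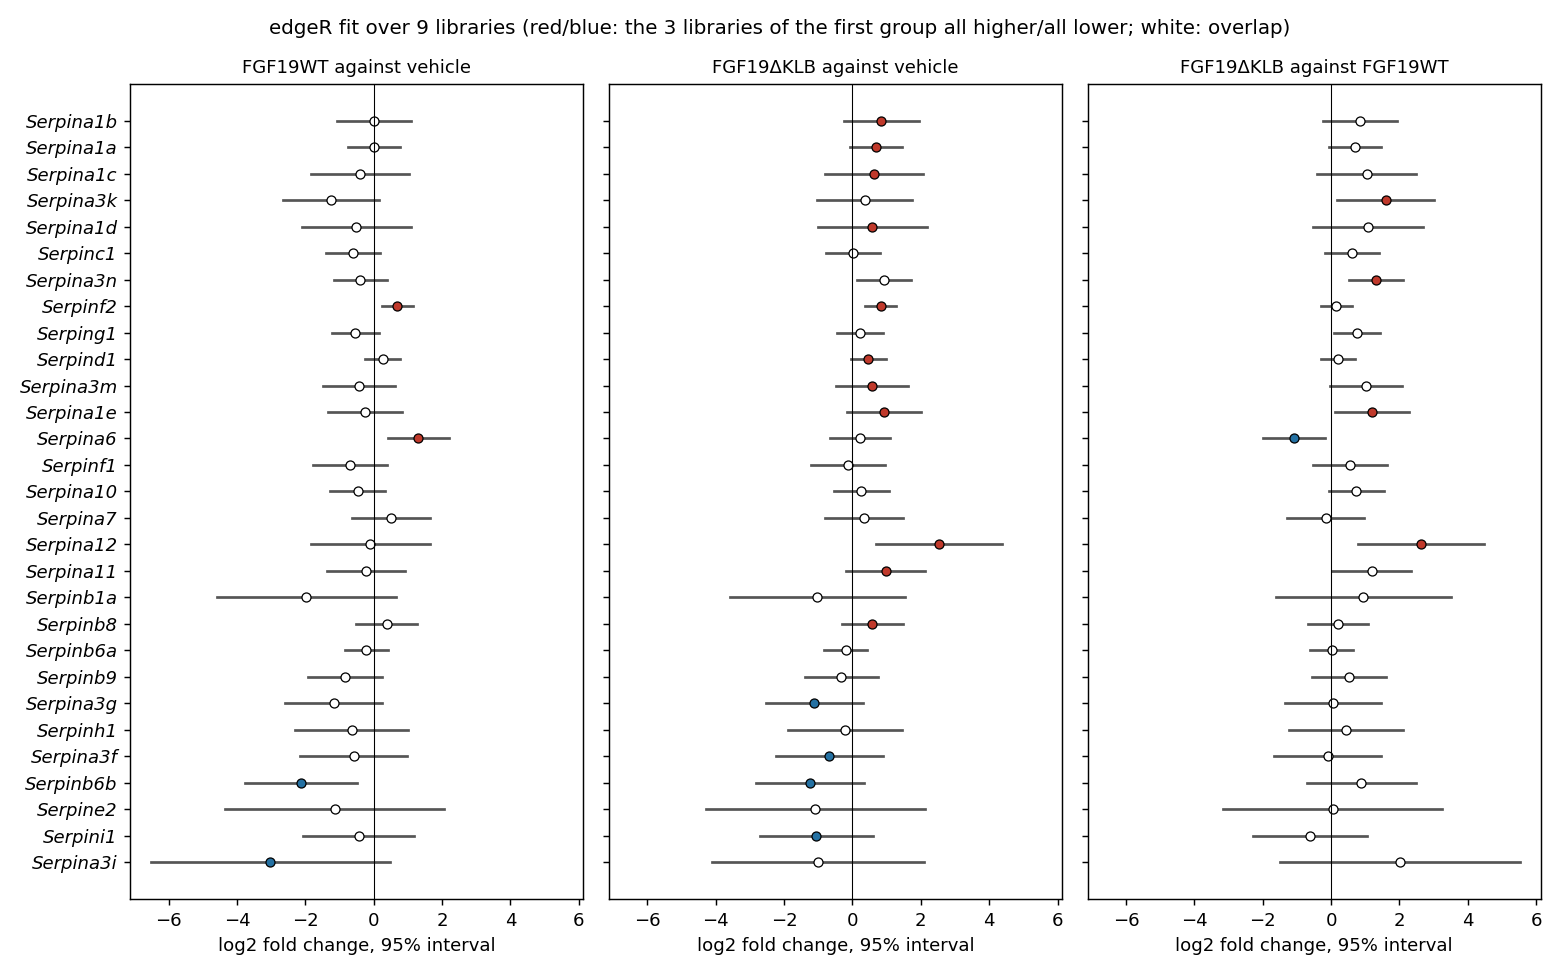
Log2 fold change with its 95% confidence interval from edgeR over 9 libraries for the tested Serpin genes, in 3 panels for FGF19WT against vehicle, FGF19ΔKLB against vehicle and FGF19ΔKLB against FGF19WT. Red and blue points are genes whose libraries lie all higher or all lower in the group named first, 4, 15 and 5 genes, and white points overlap.

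For FGF19ΔKLB against vehicle, 15 of 30 Serpin genes had libraries that did not overlap between the groups, against 24.6% of all genes. Of these, 11 were higher in FGF19ΔKLB (12.4% of all genes) and 4 lower (12.2%). The 11 were Serpina1a to Serpina1e, Serpina3m, Serpina11, Serpina12, Serpinb8, Serpind1 and Serpinf2. In FGF19WT library 1 as well, the same 11 genes lay above all 3 vehicle libraries. Among all genes, 1475 of the 2247 that were higher in FGF19ΔKLB did so too, 8.13% of all genes. Serpinb6b lay below in these 4 libraries, as did 1508 of the 2221 genes lower in FGF19ΔKLB, 8.31% of all genes. The Serpina1 copies among the 11 share long stretches, so their counts are not independent. With library totals as the only scaling, 7 genes were higher (5.85% of all genes) and 6 lower (20.7%): Serpina1a to Serpina1e, Serpina12 and Serpinf2 stayed higher, while Serpina3m, Serpina11, Serpinb8 and Serpind1 overlapped. Serpinb6a and Serpine2 joined the lower genes. That scaling moves the median of all genes to -0.17 for this comparison.

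Serpina1b, the most abundant α-antitrypsin copy, was at 16307, 4746 and 4798 CPM in FGF19WT, 16973, 12685 and 16596 CPM in FGF19ΔKLB, and 8319, 9509 and 8001 CPM in vehicle livers. Its FGF19ΔKLB to vehicle log2 fold change was 0.84 (SE 0.48, edgeR adjusted p = 0.712). Serpina1a was at 7212, 3253 and 3456 CPM in FGF19WT, 7444, 6518 and 8494 CPM in FGF19ΔKLB, and 4534, 4973 and 4307 CPM in vehicle livers, with a log2 fold change of 0.70 (SE 0.33, edgeR adjusted p = 0.639). Every FGF19ΔKLB library was above every vehicle library for both genes, and FGF19WT library 1 lay with FGF19ΔKLB while libraries 2 and 3 lay below vehicle. Serpina1c was at 6218, 1168 and 996 CPM in FGF19WT, 5378, 5446 and 6365 CPM in FGF19ΔKLB, and 3795, 3587 and 3741 CPM in vehicle livers. Serpina1d was at 5134, 860.1 and 599 CPM in FGF19WT, 5102, 3991 and 4946 CPM in FGF19ΔKLB, and 3180.5, 3197 and 2999.7 CPM in vehicle livers. These copies, which carry TAT at the marked codon, showed, as a ratio, the widest gap between FGF19WT library 1 and its partners, and their FGF19ΔKLB to vehicle log2 fold changes were 0.63 (SE 0.63) and 0.58 (SE 0.70). Serpina1e, the copy with TTG, was at 488, 298 and 145 CPM in FGF19WT, 530.1, 502 and 1092 CPM in FGF19ΔKLB, and 367, 467 and 279.7 CPM in vehicle livers. It was higher in all FGF19ΔKLB libraries than in all others, by a log2 fold change of 0.93 (SE 0.47) against vehicle and 1.19 (SE 0.48, edgeR adjusted p = 0.359) against FGF19WT. The value against FGF19WT was 0.53 without FGF19WT libraries 2 and 3 and 1.69 (edgeR adjusted p = 0.0314) without library 1. FGF19ΔKLB library 3 was the highest, and without it the values were 0.48 against vehicle and 0.74 against FGF19WT.

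The makeup of the Serpina1 pool differed most in FGF19WT libraries 2 and 3. Serpina1a took 20.4%, 31.5% and 34.6% of the Serpina1a to Serpina1e CPM in FGF19WT, 21.0% to 22.7% in FGF19ΔKLB and 22.3% to 22.9% in vehicle livers. Serpina1c took 17.6%, 11.3% and 9.96% in FGF19WT and Serpina1d 14.5%, 8.33% and 6.0%, where the FGF19ΔKLB and vehicle libraries held 15.2% to 19.4% Serpina1c and 13.2% to 15.7% Serpina1d. The share of Serpina1b was 46.0% to 48.0% in FGF19WT, 43.5% to 47.9% in FGF19ΔKLB and 41.2% to 43.8% in vehicle livers. A larger share of Serpina1a thus stood beside smaller shares of Serpina1c and Serpina1d in 2 libraries of 1 group. How the counting split reads between similar copies was not tested.

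**Figure D3:**
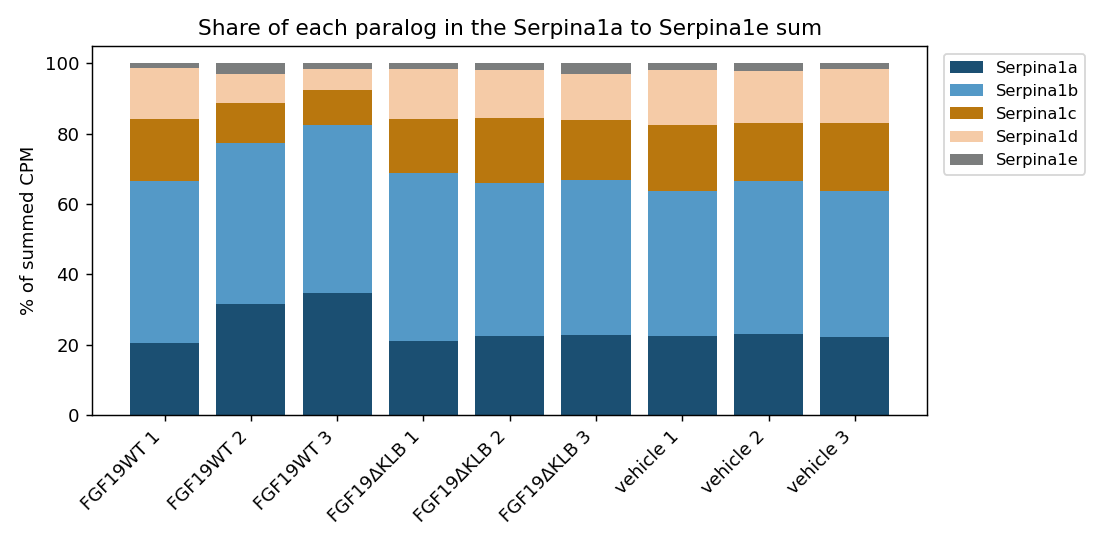
Share of Serpina1a, Serpina1b, Serpina1c, Serpina1d and Serpina1e in their summed CPM, in percent, for each FGF19WT, FGF19ΔKLB and vehicle library (stacked bars). FGF19WT libraries 2 and 3 have a larger Serpina1a part, 31.5% and 34.6%, and smaller Serpina1c and Serpina1d parts than the other 7.

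The Serpina3 genes are the mouse relatives of human antichymotrypsin. Serpina3k, a kallikrein-binding serpin, was at 3259, 894 and 563 CPM in FGF19WT, 3893, 3866 and 6525 CPM in FGF19ΔKLB, and 4779, 2608 and 3786 CPM in vehicle livers. It was higher in all FGF19ΔKLB than in all FGF19WT libraries (log2 fold change 1.60, SE 0.62, edgeR adjusted p = 0.354) and overlapped between FGF19ΔKLB and vehicle. Serpina3n, an acute-phase serpin that in mouse inhibits granzyme B and cathepsin G, was at 727, 539 and 566 CPM in FGF19WT, 1145, 1730.2 and 1705 CPM in FGF19ΔKLB, and 520.1, 670.0 and 1229.8 CPM in vehicle livers. It exceeded all FGF19WT libraries in all FGF19ΔKLB libraries, by a log2 fold change of 1.32 (SE 0.35); edgeR gave an adjusted p of 0.237 and DESeq2 one of 0.0108. Without FGF19WT libraries 2 and 3 these log2 fold changes against FGF19WT were 0.54 for Serpina3k and 1.07 for Serpina3n, and without library 1 they were 2.72 (edgeR adjusted p = 0.00204) and 1.48 (edgeR adjusted p = 0.0244). For Serpina3n, vehicle library 3 was above the other vehicle libraries and within the FGF19ΔKLB range. Serpina3m, whose annotated gene overlaps Serpina3k on the same strand so that their reads cannot be told apart with certainty, was at 767, 241 and 205 CPM in FGF19WT, 805, 955 and 698 CPM in FGF19ΔKLB, and 503, 526 and 618 CPM in vehicle livers. It was higher in all FGF19ΔKLB than in all vehicle libraries (log2 fold change 0.58, SE 0.46, edgeR adjusted p = 0.818). The 3 genes summed to 4752, 1674 and 1334 CPM in FGF19WT, 5843, 6551 and 8928 CPM in FGF19ΔKLB, and 5801, 3804 and 5634 CPM in vehicle livers, and every FGF19ΔKLB library was above every other library, by as little as 5843 against 5801 CPM. This depended on TMM scaling: as a percent of counts, FGF19ΔKLB library 1 held 0.544%, below the 0.593% of vehicle library 1 and the 0.609% of vehicle library 3.

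Serpina3g, which in mouse inhibits lysosomal cathepsins in lymphocytes, was at 8.83, 2.20 and 1.45 CPM in FGF19WT, 3.81, 5.53 and 3.60 CPM in FGF19ΔKLB, and 6.92, 8.17 and 12.9 CPM in vehicle livers. Serpina3f, its neighbour, was at 3.12, 0.395 and 0.798 CPM in FGF19WT, 1.51, 1.61 and 0.901 CPM in FGF19ΔKLB, and 1.95, 1.64 and 2.87 CPM in vehicle livers. Both were lower in all FGF19ΔKLB than in all vehicle libraries, with log2 fold changes of -1.11 (SE 0.62) and -0.68 (SE 0.69), and neither passed edgeR's test. The 9 T and NK cell markers, 8 of them tested, summed to 1.53 to 5.465 CPM in FGF19WT, 2.42 to 4.232 CPM in FGF19ΔKLB and 7.204 to 15.65 CPM in vehicle livers, lower in both treated groups too; none was at 0 throughout a group, and their part was not tested. Serpina3i, at or below 0.179 CPM in every library, was lower in all FGF19WT than in all vehicle libraries.

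Among inhibitors of clotting and fibrinolysis, Serpinf2 had the smallest standard error in the 9-library fit. It encodes antiplasmin, which blocks plasmin and so protects the fibrin clot, and was at 1049.5, 871 and 1057 CPM in FGF19WT, 1119, 962 and 1218 CPM in FGF19ΔKLB, and 542, 608 and 703 CPM in vehicle livers. All 6 libraries of the treated groups were above all 3 vehicle libraries. Against vehicle, the log2 fold change was 0.68 (SE 0.20, 95% confidence interval 0.23 to 1.14, edgeR adjusted p = 0.142, DESeq2 adjusted p = 0.00358) for FGF19WT and 0.83 (SE 0.20, interval 0.38 to 1.29, edgeR adjusted p = 0.275, DESeq2 adjusted p = 0.000699) for FGF19ΔKLB. In edgeR's test over the 6 FGF19ΔKLB and vehicle libraries it rose by 0.83 (SE 0.15, adjusted p = 0.0494). This call sat at the threshold: with any 1 of the 6 libraries left out, the adjusted p was 0.0536 to 0.164. FGF19WT against vehicle was 0.77 (edgeR adjusted p = 0.382) without FGF19WT libraries 2 and 3, and 0.63 (edgeR adjusted p = 0.0306) without library 1. FGF19ΔKLB against FGF19WT gave 0.15 (SE 0.20, interval -0.30 to 0.60), an interval that holds differences of either sign.

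Serpind1, heparin cofactor, which inhibits thrombin, was at 889, 564 and 633 CPM in FGF19WT, 891, 688 and 816 CPM in FGF19ΔKLB, and 553, 571 and 618 CPM in vehicle livers. It was higher in all FGF19ΔKLB than in all vehicle libraries by a log2 fold change of 0.46 (SE 0.22, edgeR adjusted p = 0.646). Serpinc1, antithrombin, the main plasma inhibitor of thrombin, was at 1884, 725 and 988 CPM in FGF19WT, 1696, 1659 and 2162 CPM in FGF19ΔKLB, and 1564, 2025 and 1844 CPM in vehicle livers. FGF19ΔKLB and vehicle overlapped (log2 fold change 0.02, SE 0.35), and FGF19WT libraries 2 and 3 lay below the other 7. Serpina10, the protein Z-dependent inhibitor of activated factor X, was at 221, 165 and 162 CPM in FGF19WT, 194, 448 and 267 CPM in FGF19ΔKLB, and 193, 213 and 354 CPM in vehicle livers. Serping1, C1 inhibitor, which restrains complement and the contact pathway, was at 872, 478 and 479 CPM in FGF19WT, 827, 1154 and 1108 CPM in FGF19ΔKLB, and 774, 782 and 1095 CPM in vehicle livers. Both had overlapping groups in every comparison and their lowest values in FGF19WT libraries 2 and 3. Serpine2, protease nexin, was at 0.557, 0.333 and 0 CPM in FGF19WT, 0.352, 0.568 and 0 CPM in FGF19ΔKLB, and 0.694, 0.732 and 0.550 CPM in vehicle livers. It was near the low end and overlapped between all groups in TMM-scaled CPM. With library totals alone it was lower in every treated library than in every vehicle library. So were 11.9% of all genes for FGF19WT and 20.7% for FGF19ΔKLB.

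Serpina6 was higher in every FGF19WT library than in the other 6. It encodes corticosteroid-binding globulin, which carries glucocorticoids in blood, and was at 749, 592 and 441 CPM in FGF19WT, 215, 427 and 196 CPM in FGF19ΔKLB, and 157, 336 and 229 CPM in vehicle livers. FGF19WT livers were above vehicle and above FGF19ΔKLB livers in every library. The log2 fold change was 1.304 (SE 0.39, interval 0.40 to 2.20) for FGF19WT against vehicle, with adjusted p-values of 0.150 in edgeR and 0.0231 in DESeq2. It was -1.09 (SE 0.39, interval -1.98 to -0.19) for FGF19ΔKLB against FGF19WT, with adjusted p-values of 0.323 in edgeR and 0.103 in DESeq2. FGF19ΔKLB and vehicle overlapped (0.22, SE 0.39). FGF19WT against vehicle was 1.64 (edgeR adjusted p = 0.553) without FGF19WT libraries 2 and 3, and 1.10 (edgeR adjusted p = 0.0724) without library 1. FGF19WT library 1, which lay with FGF19ΔKLB above vehicle for the 11 genes named earlier, had the highest Serpina6 of all 9 libraries. Serpina7, thyroxine-binding globulin, the other hormone carrier, was at 46.2, 198 and 137 CPM in FGF19WT, between 91.6 and 128 CPM in FGF19ΔKLB and between 51.7 and 129 CPM in vehicle livers. It was the single one of 30 genes with FGF19WT libraries 2 and 3 both above the other 7, as for 18.4% of all genes.

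Serpina12 had the largest FGF19ΔKLB to vehicle fold change of the 30 genes. It encodes vaspin, a serpin described first in visceral fat of obese rats, and was at 41.5, 5.74 and 6.43 CPM in FGF19WT, 111, 99.6 and 124 CPM in FGF19ΔKLB, and 10.3, 12.7 and 34.4 CPM in vehicle livers. Every FGF19ΔKLB library was above all 6 others, vehicle library 3 and FGF19WT library 1 were intermediate, and FGF19WT libraries 2 and 3 were lowest. Against vehicle the log2 fold change was 2.54 (SE 0.81, 95% confidence interval 0.70 to 4.38), with adjusted p-values of 0.454 in edgeR over 9 libraries, 0.0644 in edgeR over 6 and 0.0385 in DESeq2. Without vehicle library 3, edgeR over the other 5 libraries gave 3.28 with an adjusted p of 0.00440; with any other of the 6 libraries left out, the adjusted p was 0.115 to 0.158. Against FGF19WT it was 2.64 (SE 0.81, interval 0.79 to 4.49), with adjusted p-values of 0.270 in edgeR and 0.0158 in DESeq2. That value was 1.42 (edgeR adjusted p = 0.895) without FGF19WT libraries 2 and 3, and 4.21 (edgeR adjusted p = 0.00128) without library 1. Of 6 adipose markers, Adipoq, Cfd, Lep and Plin1 were at 0 in all 3 FGF19ΔKLB libraries and Lep and Plin1 in all 3 vehicle libraries. FGF19WT library 1, the FGF19WT library with the highest Serpina12, held 2.04 CPM of Adipoq, 2.96 CPM of Lep, 1.08 CPM of Plin1 and 0.396 CPM of Cfd, while no other library held over 0.337 CPM of any of these 4 genes. The 6 markers, most of their level being Car3, summed to 182.9 to 1818 CPM in FGF19WT, 362.5 to 581.9 CPM in FGF19ΔKLB and 1563 to 2568 CPM in vehicle livers, and their part was not tested.

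**Figure D4:**
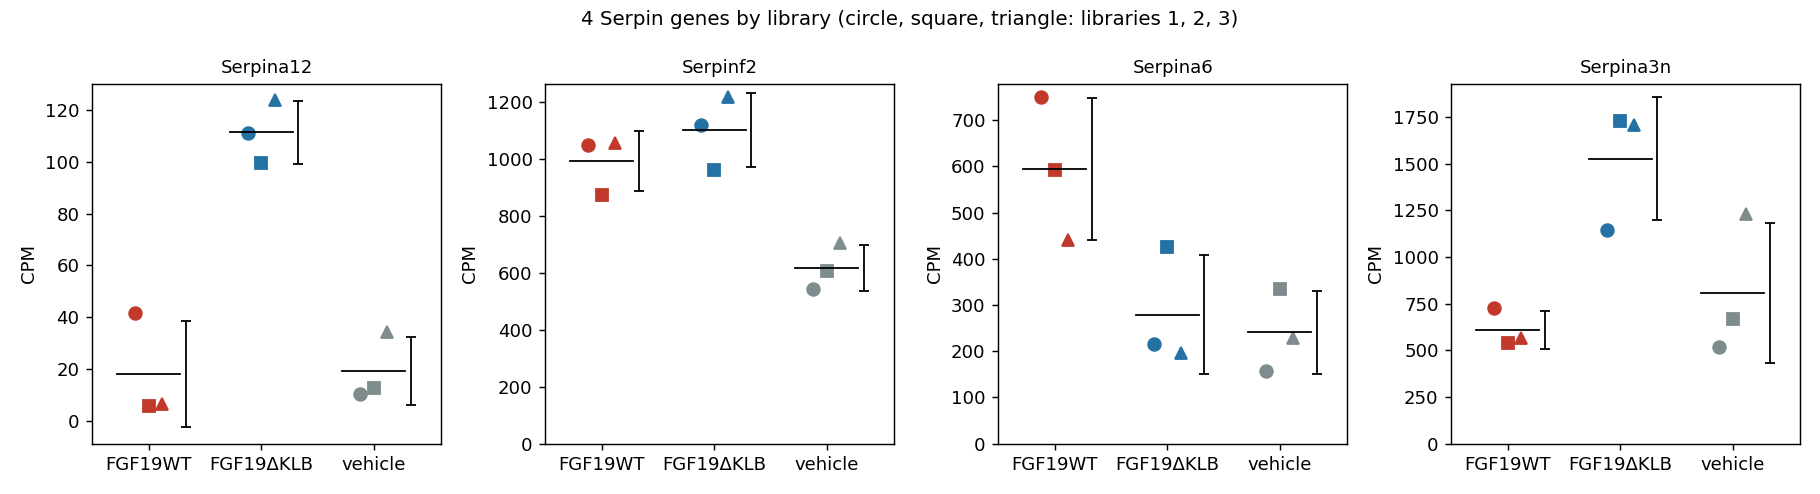
Serpina12, Serpinf2, Serpina6 and Serpina3n in CPM by library (points), for FGF19WT, FGF19ΔKLB and vehicle. Serpina12 is at 99.6 to 124 CPM in FGF19ΔKLB and at most 41.5 CPM elsewhere, Serpinf2 is lowest in vehicle, and Serpina6 is highest in FGF19WT.

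The 250 bases before the Serpina12 start are shown because this gene had the largest fold change in both FGF19ΔKLB comparisons (chr12:104044444-104044693, minus strand, RefSeq GRCm38.p6). Capitals mark ATCAAAG, the TCF/LEF motif on the reverse strand, and TTGCAAAA, a C/EBP motif.
Serpina12: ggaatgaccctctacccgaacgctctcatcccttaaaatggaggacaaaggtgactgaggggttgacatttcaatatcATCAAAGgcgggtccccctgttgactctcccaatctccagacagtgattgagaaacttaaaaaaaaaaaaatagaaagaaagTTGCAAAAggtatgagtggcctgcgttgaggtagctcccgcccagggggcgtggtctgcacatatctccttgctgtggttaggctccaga
Serpind1 was the other tested gene with a TCF/LEF match. Serpina11, a neighbour of Serpina12 in the chromosome 12 cluster, was at 55.0, 11.9 and 21.3 CPM in FGF19WT, 46.0, 77.8 and 76.9 CPM in FGF19ΔKLB, and 25.4, 35.6 and 41.7 CPM in vehicle livers, and an annotated gene, Gm28577, overlaps it on the same strand. It was higher in all FGF19ΔKLB than in all vehicle libraries, by a log2 fold change of 0.97 (SE 0.51, edgeR adjusted p = 0.681).

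Serpinf1, pigment epithelium-derived factor, a non-inhibitory serpin that restrains vessel growth, was at 472, 128 and 158 CPM in FGF19WT, 378, 265 and 473 CPM in FGF19ΔKLB, and 409, 466 and 345 CPM in vehicle livers. The groups overlapped in all 3 comparisons. Serpinh1, the collagen chaperone, was at 7.52, 4.86 and 0.697 CPM in FGF19WT, 3.24, 10.2 and 4.19 CPM in FGF19ΔKLB, and 7.09, 5.68 and 7.77 CPM in vehicle livers. It too overlapped throughout, and 0 of the 15 collagen genes and collagen-processing enzymes listed with it passed the 9-library test in any comparison, with medians of -0.54, -0.46 and 0.23.

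Clade b serpins act inside cells, and the highest of them per length, Serpinb1a, averaged 6.52 FPKM over the 9 libraries. Serpinb1a, an inhibitor of neutrophil proteases, was at 19.9, 1.31 and 0.610 CPM in FGF19WT, 8.77, 6.82 and 26.4 CPM in FGF19ΔKLB, and 35.9, 16.9 and 32.6 CPM in vehicle livers. Its groups overlapped, and FGF19WT libraries 2 and 3 were lowest. The 8 neutrophil markers, 7 of them tested, summed to 1.625 to 9.362 CPM in FGF19WT, 9.681 to 163.9 CPM in FGF19ΔKLB and 5.113 to 32.56 CPM in vehicle livers, with 163.9 CPM in FGF19ΔKLB library 2 and at most 16.66 CPM in the other FGF19ΔKLB libraries; none was at 0 throughout a group, and their part was not tested. Serpinb9, an inhibitor of granzyme B, was at 13.1, 3.96 and 4.47 CPM in FGF19WT, 12.8, 7.87 and 10.2 CPM in FGF19ΔKLB, and 8.90, 12.5 and 17.2 CPM in vehicle livers. Serpinb6a, which in human inhibits cathepsin G, was at 15.2, 13.9 and 7.21 CPM in FGF19WT, 12.5, 12.4 and 12.1 CPM in FGF19ΔKLB, and 12.2, 12.5 and 17.7 CPM in vehicle livers. Neither separated any groups in TMM-scaled CPM. With library totals alone, Serpinb6a was lower in all FGF19ΔKLB than in all vehicle libraries, as were 20.7% of all genes. Serpinb8, which in human inhibits furin, was at 22.1, 6.92 and 10.9 CPM in FGF19WT, 20.4, 13.0 and 12.5 CPM in FGF19ΔKLB, and 11, 10.2 and 9.57 CPM in vehicle livers, higher in all FGF19ΔKLB than in all vehicle libraries (log2 fold change 0.58, SE 0.39, edgeR adjusted p = 0.772). Serpinb6b was at 0.982, 0.358 and 0.116 CPM in FGF19WT, 0.616, 1.14 and 0.934 CPM in FGF19ΔKLB, and 1.88, 1.32 and 3.17 CPM in vehicle livers. Its libraries were below all vehicle libraries in both treated groups, by log2 fold changes of -2.13 (SE 0.72, edgeR adjusted p = 0.177, DESeq2 adjusted p = 0.0345) for FGF19WT and -1.25 (SE 0.70, edgeR adjusted p = 0.706) for FGF19ΔKLB. The FGF19WT value was -1.11 without FGF19WT libraries 2 and 3 and -3.15 (edgeR adjusted p = 0.00889) without library 1. Serpini1, neuroserpin, reached 0.264 CPM at most and was lower in all FGF19ΔKLB than in all vehicle libraries.

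For FGF19WT against vehicle, 4 of 30 Serpin genes did not overlap, against 22.6% of all genes: Serpina6 and Serpinf2 were higher (11% of all genes), Serpina3i and Serpinb6b lower (11.6%). For FGF19ΔKLB against FGF19WT it was 5 of 30, against 13.5% of all genes, with Serpina12, Serpina1e, Serpina3k and Serpina3n higher (7.15% of all genes) and Serpina6 lower (6.39%). The 4 are 13.3% of the tested Serpin genes, below the share of all genes, and the 5 are 16.7%, slightly above it.

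The genes that serpins act with were read from lists. None of 16 plasma proteases that serpins target passed the 9-library test in any comparison; their medians were -0.19 for FGF19WT against vehicle, 0.21 when FGF19ΔKLB was set against vehicle and 0.45 when it was set against FGF19WT. Over 6 libraries, F7, the protease that starts clotting with tissue factor, was higher in FGF19ΔKLB, with 159, 153 and 172 CPM against 81.5, 80.9 and 101 CPM in vehicle livers, and rose by 0.87 (SE 0.13, edgeR adjusted p = 0.0280). None of 12 cell-bound or intracellular proteases, 14 cofactors and clearance receptors, or 8 genes of the hormone-carrier axis passed in either fit. Among 21 tested inhibitors of other families, Kng2, a kininogen, rose by 1.06 over the 6 FGF19ΔKLB and vehicle libraries (SE 0.17, edgeR adjusted p = 0.0326), with 626, 599 and 713 CPM against 266, 286 and 379.9 CPM in vehicle livers. Of 20 regulators of liver serpins, 1 passed over those 6 libraries: Ghr, the growth hormone receptor, fell by 0.79 (SE 0.13, edgeR adjusted p = 0.0391), with 173, 186 and 142 CPM against 298, 288 and 280.0 CPM in vehicle livers. Plod1, a collagen lysyl hydroxylase, fell by 0.63 (SE 0.11, edgeR adjusted p = 0.0418). Each of these 6-library calls was 1 gene of its list, where edgeR called 1.68% of all genes. They were not followed with libraries left out. For FGF19ΔKLB against vehicle, DESeq2 over 9 libraries called 0 plasma proteases and 0 regulators, where it called 2.04% of all genes. It called 1 inhibitor of other families higher and 1 collagen gene or enzyme lower. The 22 acute-phase genes had medians of -1.10, 0.01 and 1.19 in the same order of comparisons with 0 past the 9-library test, and DESeq2 called 2 lower for FGF19WT against vehicle, where it called 9.61% of all genes. It called 1 higher in FGF19ΔKLB than in vehicle (2.04% of all genes) and 1 higher than in FGF19WT (4.6%).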

How the data were processed

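Liver RNA of 9 libraries was read from 1 deposited table that gives, per gene and library, an expected count (whole numbers) and an FPKM value, both made by the authors. The submitters' processing notes name Bowtie 0.12.2, HISAT2 2.0, StringTie 1.3.0 and the build mm8 without roles. Gene starts in the table follow GENCODE M21 on GRCm38, whose coordinates are given. For the 47 Serpin genes, all 47 starts and 39 ends equal those of GENCODE M21. Counts that are multiples of 4 were 1.53 to 1.66 times more frequent than even spacing gives, so counts may exceed read pairs. Counting error, as far as depth sets it, is smaller at higher levels. It is large for the 17 genes under the filter and for tested genes near or below 1 CPM. Serpinb6b, with a mean of 1.17 CPM, had 29 and 8 counts in FGF19WT libraries 2 and 3.

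Counts were used as deposited and fitted with edgeR 4.0.16 (TMM scaling, filterByExpr, quasi-likelihood test, group as the only term) in R 4.3.3, over all 9 libraries and, as an alternative, over the 6 of the groups compared. P-values were Benjamini-Hochberg adjusted over all genes tested, with 0.05 as the threshold. CPM values are TMM-scaled. Alternatives were DESeq2 1.42.0, limma 3.58.1 on log2(FPKM + 1), other filters and scalings, counts divided by 4, a replicate block, and libraries left out. The pipeline was tested on simulated data. Sequences came from GENCODE transcripts and RefSeq windows. The members, gene lists and tests were chosen with earlier results of these data known, some in an earlier analysis of the same files. Values in every library are given for a list of Serpin genes chosen by their known roles, for those past the test, and for those with a mean of at least 1 CPM whose groups do not overlap; 1 tested Serpin gene enters the counts but is not reported here.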

Additional observations from a re-analysis of the deposited data

How the results depend on the processing

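Under edgeR, 0 Serpin genes were called in each comparison without the low-count filter, with at least 5 CPM in at least 3 libraries, with DESeq2 size factors, with library totals alone, with counts divided by 4, with a replicate block, and in limma on log2(FPKM + 1). DESeq2's Wald test called 3 for FGF19WT against vehicle, and for FGF19ΔKLB it called 2 against vehicle and 2 against FGF19WT. The 6-library fit of edgeR, and the 9-library fit without FGF19WT libraries 2 and 3, each called 1 for FGF19ΔKLB against vehicle, Serpinf2. Leaving out 1 library at a time gave 0 to 16, 0 to 1 and 0 to 16 calls in the 3 comparisons, and FGF19WT library 1 was the one whose omission gave 16, 1 and 16. Within 6 libraries, chosen after seeing the data, DESeq2 called 2, 10 and 2, beside 1102 of 17430, 1378 of 17340 and 533 of 17123 genes. Leaving out 1 of the 6 libraries, edgeR gave 0 to 13, 0 to 1 and 0 to 14 calls. The 13 and the 14 came without FGF19WT library 1, beside 4697 of 18417 and 2843 of 18045 genes. The 1 came without vehicle library 3, beside 84 of 17859 genes. A replicate block in the 6-library fit gave 0 calls for FGF19ΔKLB against vehicle, against 1 without it. Correlations of deviations between libraries of the same replicate number ran from -0.048 to 0.147. None were computed between different numbers, so whether the numbers pair the libraries is undecided. Without Serpina1a to Serpina1e, Serpina3k and Serpinc1, the Serpin share of counts became 0.579% in FGF19WT library 1, 0.551%, 0.676% and 0.580% in FGF19ΔKLB and 0.395%, 0.432% and 0.596% in vehicle libraries. The causes were not tested. Of the log2 fold changes of single genes, 18 were followed across the alternatives: none changed sign, and 11 passed the threshold under at least 1 alternative. They were picked for an unadjusted p below 0.05 in edgeR over 9 libraries or a call over 6. Serpina1a to Serpina1e were added for FGF19ΔKLB against vehicle. A stable sign follows in part from this choice, and the other log2 fold changes were not followed.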
